A study of Mus musculus with 8 samples.

Results

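Ppy and Pyy are 2 of the 24421 genes counted in single islet cells of 8-week-old mice, and both were taken by name. Earlier results of these data were known when they were chosen. The cells came from 4 control samples, from mice without any operation, and from 4 samples taken 2 days after 50% partial pancreatectomy (PPTx), which removes part of the pancreas. All mice were male C57BL/6J, and islets of 1 to 3 mice were pooled for each sample. In the PPTx mice the splenic side of the gland was cut away, so their islets came from the remaining side, whereas control islets came from the uncut gland. The operation and the region of the pancreas therefore cannot be told apart in any comparison of the groups. The sources used here do not say whether the pools of a group were prepared on separate days, and p-values measure the spread between these samples.

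Ppy encodes pancreatic polypeptide, the hormone that names the PP cell of the islet, and Pyy encodes peptide YY, which is best known as a satiety hormone of the lower gut and is also made in the islet. Both belong to the neuropeptide Y family, whose members share a hairpin-like fold and act on Y receptors, with pancreatic polypeptide preferring the Y4 receptor. In mice PP cells are most frequent in the head of the pancreas, on the duodenal side, and glucagon-producing cells in the body and tail on the splenic side.

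Both genes lie on the minus strand of chromosome 11 of GRCm38.p6, the NCBI name of the mm10 build that the labels give. RefSeq places Ppy at chr11:102099931-102101319, with 1 transcript, and Pyy at chr11:102106676-102107832, with 2 transcripts. A gap of 5356 bases separates them, and the RefSeq table lists no gene inside it. The 250 bases before each annotated start are printed because these neighbouring genes were abundant in the same cells, and capitals mark the letters TATAA. They read 5′ to 3′ on the minus strand, at chr11:102101320-102101569 for Ppy and chr11:102107833-102108082 for Pyy:
Ppy promoter: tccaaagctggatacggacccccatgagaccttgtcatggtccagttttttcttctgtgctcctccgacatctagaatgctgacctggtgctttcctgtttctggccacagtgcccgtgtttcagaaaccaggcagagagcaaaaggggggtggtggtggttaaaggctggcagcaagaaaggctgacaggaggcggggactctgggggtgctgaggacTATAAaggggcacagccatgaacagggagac
Pyy promoter: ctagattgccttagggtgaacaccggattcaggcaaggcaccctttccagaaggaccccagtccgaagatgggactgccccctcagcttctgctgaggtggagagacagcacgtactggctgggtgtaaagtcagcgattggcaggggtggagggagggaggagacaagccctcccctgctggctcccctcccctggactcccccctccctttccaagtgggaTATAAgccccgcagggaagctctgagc

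TATAA occurred once in each sequence, its first base 31 bases before the annotated start of Ppy and 27 bases before that of Pyy. It was present on either strand in 22.8% of the 32851 promoters of this length in the RefSeq table. CANNTG, the E-box letters, was found in the Pyy sequence and not in that of Ppy, against 66.2% of all promoters on either strand, and TAAT was found in neither, against 54.9%. These are matches of letters only. The longest run of identical bases shared by a Ppy and a Pyy transcript of GENCODE M1 was 10 bases, so reads of one gene had no long stretch in common with the other.

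The 1240 deposited cells held 236645 to 1580152 unique molecular identifiers (UMIs) per control sample and 613202 to 1560114 per PPTx sample. Filters on genes and UMIs kept 1232 cells, 520 control and 712 PPTx, none with fewer than 2005 UMIs. Each cell was put in a class by its highest hormone among insulin (Ins1 and Ins2 summed), Gcg, Sst, Ppy and Ghrl. Pyy was not used for this, so that of Ppy and Pyy only the Ppy level of a class depends directly on its definition. This gave 957 insulin-led, 137 Ppy-led, 121 Gcg-led and 16 Sst-led cells and 1 cell led by Ghrl. The next hormone was within a factor of 3 of the leader in 8 insulin-led, 12 Ppy-led, 11 Gcg-led and 7 Sst-led cells. One barcode occurred in 2 samples, in an insulin-led cell of PPTx replicate 3 with 3 Ppy UMIs and in a Ppy-led cell of PPTx replicate 4 with 1510.

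Markers of other classes matched the leading hormones. The β-cell genes Ucn3 and G6pc2, a hormone and a glucose-6-phosphatase, reached 530 and 1997 CPM (counts per 10 to the power of 6 UMIs of the class) in insulin-led cells and 6.55 and 89.1 CPM in Ppy-led cells. Irx2, a transcription factor of glucagon cells, reached 192 CPM in Gcg-led cells and 31.4 CPM in Ppy-led cells. Tspan8, a membrane protein, was at 651 CPM in Ppy-led, 36.4 CPM in Gcg-led and 27.6 CPM in insulin-led cells. The other markers listed for Ppy-led cells did not set them apart from Gcg-led cells in this way. The transcription factors Etv1 and Isl1 were at 162 and 176 CPM in Ppy-led cells and at 199 and 267 CPM in Gcg-led cells, and Meis2 was at 160 and 113 CPM. Fxyd2, Vsig1 and Aqp3 had only 6, 9 and 0 UMIs in all cells. The enteroendocrine hormones Cck, Nts and Sct had 1, 2 and 4 UMIs in total and Gip had none. Of the immune markers Cd74 and Laptm5, all 85 and 31 UMIs lay in insulin-led cells, in 0.731% and 0.627% of them. Of the stellate markers, Col3a1 had 186 of 188 UMIs there, whereas Col1a2 had a UMI in 8.76% of Ppy-led and 0.522% of insulin-led cells. The lowest insulin share of an insulin-led cell was 0.875% of its UMIs. Whether such cells were of other types was not tested. Of 5 endothelial markers, Pecam1 was at 0 in all cells and 3 had a UMI. Esam, an adhesion molecule, had 37 UMIs and was at 18.3 CPM in Ppy-led, 11.5 CPM in Gcg-led and 2.50 CPM in insulin-led cells. Of 5 ductal markers 4 had a UMI, and their sum over all cells of a sample was 146 to 218 CPM in control and 165 to 309.5 CPM in PPTx samples. Krt7, a keratin with 1184 UMIs, the most of this list, was at 157 CPM in insulin-led, 151 CPM in Ppy-led and 115 CPM in Gcg-led cells. Spp1, the osteopontin gene of this list, was at 214 CPM in Ppy-led, 44.1 CPM in Gcg-led and 32.5 CPM in insulin-led cells, with a UMI in 28.5% of Ppy-led cells, whereas Krt19 and Sox9 had 12 and 10 UMIs in all cells.

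Ppy and Pyy were among the most abundant transcripts of these islets, and most of their UMIs came from a minority of cells. Ppy took 394165 UMIs, or 5.09% of all, and ranked 3rd among the genes, while Pyy took 106279 UMIs, or 1.37%, and ranked 6th. A Ppy UMI was present in 75.6% of cells and a Pyy UMI in 52.3%, but the median cell held 2 and 1. For Ppy, 301 cells had no UMI and 672 had 1 to 9, only 60 had at least 10 but under 100, 75 had at least 100 but under 1000, and 124 had 1000 or more. The same steps of Pyy held 588, 353, 100, 166 and 25 cells. Few cells lay between the low and the high counts of Ppy, and few reached 1000 UMIs of Pyy. The top 5% of cells, 62 cells, carried 63.4% of all Ppy and 60.8% of all Pyy UMIs.

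The classes shared these transcripts unequally. Ppy-led cells were 11.1% of all cells and held 91.7% of Ppy but 80.5% of Pyy UMIs. Gcg-led cells, 9.82% of all, held 3.48% of Ppy and 11.4% of Pyy. Insulin-led cells, 77.7% of all, held 4.11% of Ppy and 5.97% of Pyy, and the 16 Sst-led cells held 0.702% of Ppy, with 2234 of the Pyy UMIs. The Ppy-led class was defined by Ppy and not by Pyy, which by itself favours a larger share of Ppy in it.

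**Figure D1:**
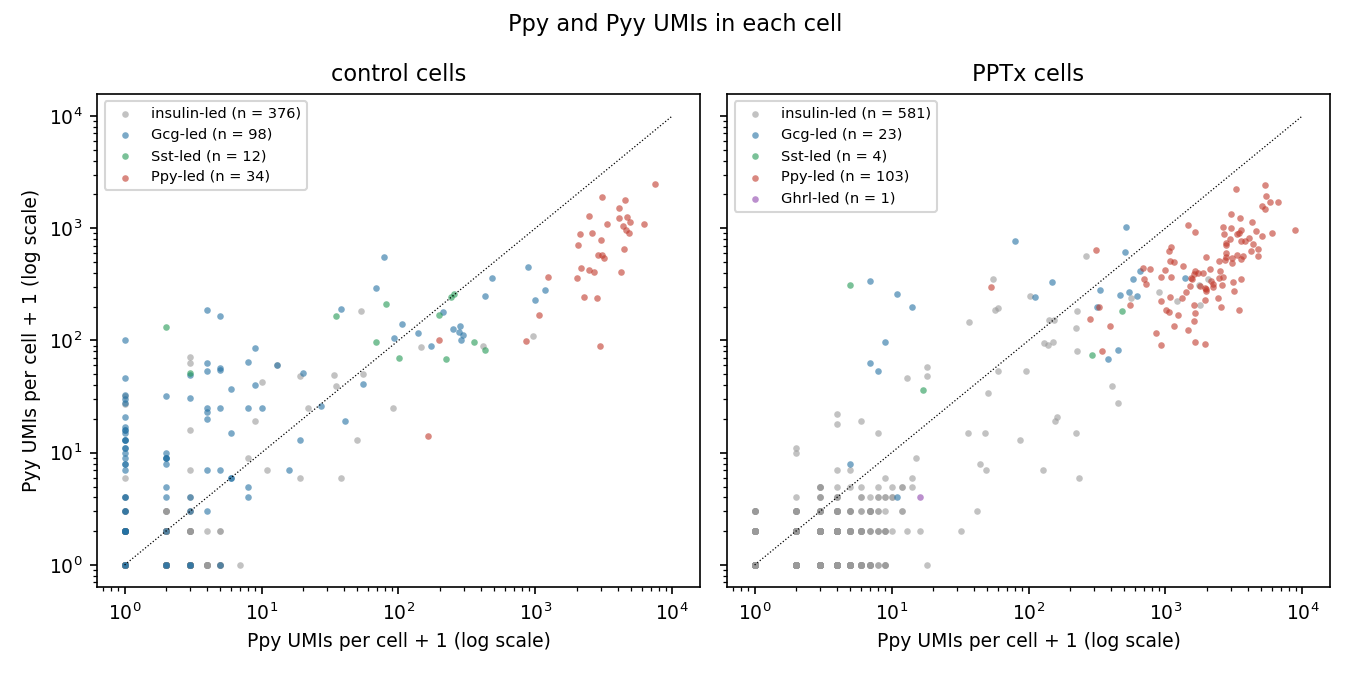
Pyy against Ppy UMIs of each cell, both plus 1 on log axes, with control cells left and PPTx cells right; colours give the leading hormone and the dotted line marks equal counts. Ppy-led cells lie below the line except for 2 of 137, whereas 78 of 121 Gcg-led cells lie above it, and most insulin-led cells hold fewer than 10 UMIs of either gene.

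The levels of Pyy followed the order Ppy-led, then Sst-led and Gcg-led, then insulin-led cells. In Ppy-led cells Pyy was 107416 ± 31478 CPM (SD, n = 8 samples). It was 50155 ± 31556 CPM (SD, n = 7) in Sst-led, 40494 ± 32578 CPM (SD, n = 8) in Gcg-led and 998 ± 702 CPM (SD, n = 8) in insulin-led cells. The order of Sst-led and Gcg-led cells was not the same in the 2 groups, and these means pool them. In the control samples Pyy was at 28359, 58857, 57828 and 34046 CPM in Sst-led cells, above all 4 Gcg-led values of 11161 to 21213 CPM. In the PPTx samples it was at 112921, 16974 and 42100 CPM in Sst-led cells of replicates 1 to 3, from 1, 1 and 2 cells, and overlapped the Gcg-led values of 29348 to 96338 CPM. Only control replicate 4 had 5 Sst-led cells, so no pair with this class was tested. The remaining 3 pairs were compared within samples that held at least 5 cells of both classes, by exact sign flips of the difference on the log2(CPM + 10) scale. Pyy was higher in Ppy-led than in insulin-led cells in 7 of 7 samples, by 7.18 ± 1.31 (SD, n = 7, exact p = 0.0156, adjusted p = 0.0469). It was higher in Gcg-led than in insulin-led cells in 6 of 6 samples, by 5.07 ± 0.881 (SD, n = 6, exact p = 0.0312, adjusted p = 0.0469). Both are the smallest p that these numbers of samples allow, and leaving out any sample of the second pair raised its p to 0.0625. Ppy-led cells exceeded Gcg-led cells in 5 of 5 samples by 2.17 ± 1.08 (SD, n = 5), where the exact p could not fall below 0.0625 and equalled it.

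**Figure D2:**
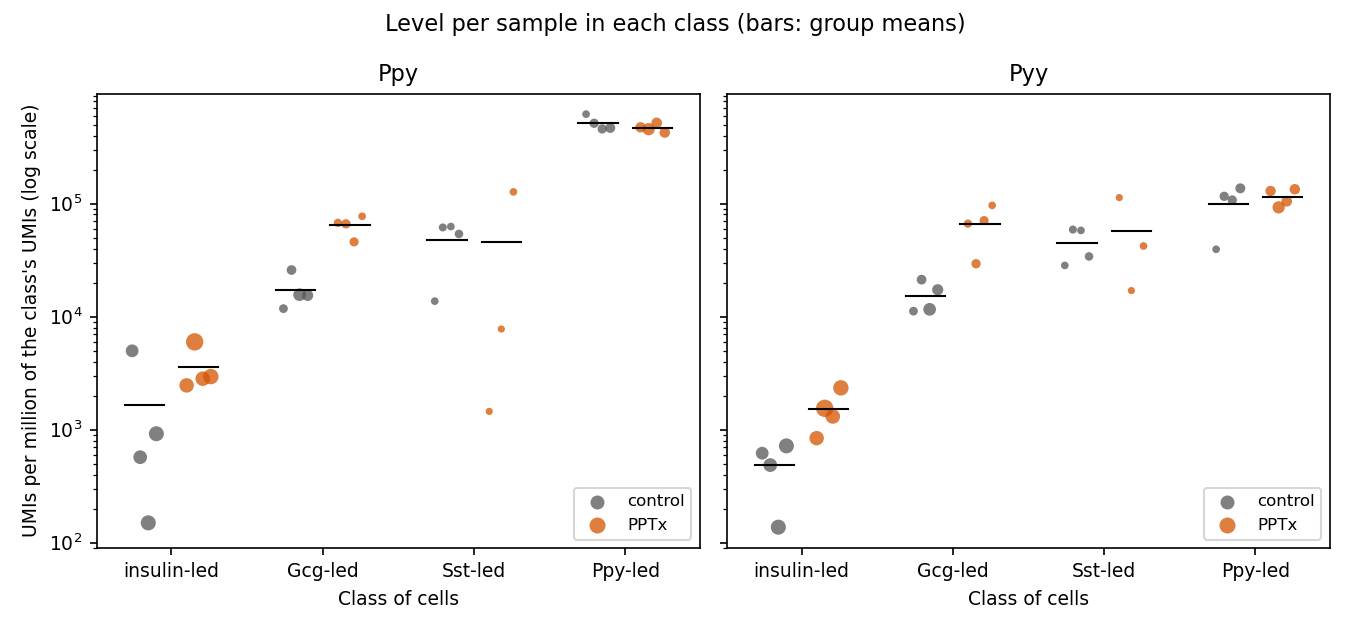
Ppy (left) and Pyy (right) in CPM on a log axis, by class of cells; each point is 1 sample, larger for more cells, in grey for control and orange for PPTx, and lines are group means. Pyy in Gcg-led cells sits between the levels of insulin-led and Ppy-led cells, and is higher in all 4 PPTx samples than in the control samples.

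For Ppy, the level in Ppy-led cells is a matter of definition, and the other classes followed an order like that of Pyy. Ppy was 490521 ± 59821 CPM (SD, n = 8) in Ppy-led, 46797 ± 43951 CPM (SD, n = 7) in Sst-led, 40649 ± 26860 CPM (SD, n = 8) in Gcg-led and 2601 ± 2075 CPM (SD, n = 8) in insulin-led cells. In the control samples Ppy was higher in Sst-led than in Gcg-led cells of the same sample in 4 of 4, at means of 47895 and 17143 CPM, with no test for the few Sst-led cells. In the PPTx samples Sst-led cells ranged from 1448 to 126795 CPM, around the 45806 to 77136 CPM of Gcg-led cells.

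Pyy was found in every Ppy-led cell. All 137 had a UMI of both genes, also when each cell was thinned to 2000 UMIs, and 136 of 137 held Pyy above 1% of their UMIs. Ppy made up a median of 47.7% and Pyy a median of 9.75% of the UMIs of such a cell, with a range of 0.426% to 29.8% for Pyy. Summed over Ppy-led cells, Pyy came to 6.37, 22.6, 23.5 and 29.2 UMIs per 100 Ppy UMIs in control replicates 1 to 4 and to 27.3, 20.4, 20.3 and 31.5 in PPTx replicates 1 to 4. Control replicate 1 stood below all the others, with only 2 Ppy-led cells, and the remaining samples of both groups overlapped. Cell by cell the ratio had a median of 20.8 in both groups and quartiles of 14.8 and 33.6 over all 137 cells. Within a sample, Ppy and Pyy shares of single Ppy-led cells had a median Spearman rho of -0.204 over 7 samples, with a range from -0.564 to 0.200; both are shares of the same total, of which Ppy took a large part.

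Among the Gcg-led cells of the control samples Pyy was detected in more cells than Ppy. A Pyy UMI was present in 92.9% and a Ppy UMI in 68.4% of these 98 cells as deposited, and in 88.8% and 59.2% after thinning to 2000 UMIs. All 23 Gcg-led cells of the PPTx samples held both genes, as deposited and thinned, so that the genes had no order there. In insulin-led cells the thinned shares were 21.3% for Pyy and 43.7% for Ppy, the reverse order. Pyy exceeded Ppy in 67.3% of control and 52.2% of PPTx Gcg-led cells, against 1.46% of Ppy-led and 12.7% of insulin-led cells. Above 1% of the UMIs of a cell, 17 control and 14 PPTx Gcg-led cells held both genes, 14 and 5 Pyy alone, 2 and 1 Ppy alone, and 65 and 3 neither. The pair gave 74.2 to 112 Pyy UMIs per 100 Ppy UMIs in the control samples and 44.4 to 154 in the PPTx samples, above the ratio of the Ppy-led cells in all 8 samples. Across the Gcg-led cells of a sample, Ppy and Pyy shares had a median rho of 0.599 over 6 samples, a description of cells of shared libraries.

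All 16 Sst-led cells carried both genes, Pyy at 35 to 312 UMIs and Ppy at 1 to 478. Pyy made up a median of 3.74% and Ppy a median of 5.96% of their UMIs, and Pyy exceeded Ppy in 9 of them. One Sst-led cell of control replicate 4 had 132 Pyy and 1 Ppy UMI beside 3041 of Sst. The Ghrl-led cell, from PPTx replicate 1, had 4588 Ghrl, 15 Ppy and 3 Pyy UMIs. In 4 cells Pyy exceeded every hormone used for the classes, all from PPTx samples. These held 145 Pyy against 117 insulin UMIs, 297 against 52 Ppy, 642 against 310 Ppy and 354 against 289 insulin UMIs.

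Cells with a second hormone were counted at 5% of the UMIs for each. Of 181 cells with Ppy above this level, 140 also held Pyy, 31 Gcg, 18 insulin and 11 Sst above it.

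The background of both genes was read from the insulin-led cells, since insulin is their leading hormone and droplets carry free RNA of other cells. Most of these cells held few UMIs. For Ppy 270 of 957 had none, 622 had 1 to 9, and 65 had 10 or more, which carried 90.3% of the Ppy UMIs of the class. For Pyy 581 had none, 318 had 1 to 9, and 58 had 10 or more, which carried 91.5%. The mean level of the class thus rested on few cells, and in control replicate 1 a single cell with 966 Ppy UMIs gave 96.8% of them. In the 880 cells with fewer than 10 UMIs of both genes, Ppy was at 56.5 to 163 CPM in control and 198 to 554 CPM in PPTx samples, or 0.213% to 0.765% of the level over all cells of its sample. The same measure was not alike for other hormones. Pyy stood at 0.164% to 2.50%, Gcg at 0.320% to 0.911% and Sst at 1.07% to 41.3% of the level over all cells. The cells were chosen by their low counts here, so no test was made.

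The ratio of the pair in insulin-led cells was set against that of the Ppy-led cells of the same sample. Insulin-led cells held 12.4 to 91.6 Pyy UMIs per 100 Ppy UMIs, more than the Ppy-led cells of the same sample in 8 of 8 samples. The classes were chosen by Ppy, which is the denominator, high in one and below insulin in the other, so the ratio is given with no test. In the cells with fewer than 10 UMIs of both, the ratio was 20.0 to 62.3, and it exceeded that of the Ppy-led cells in 6 of 8 samples, with control replicates 2 and 4 below it. How far the share of insulin-led cells with a UMI reflects expression was not tested. The other 77 insulin-led cells had 10 or more UMIs of either gene, 22 in control and 55 in PPTx samples, and droplets with more than 1 cell among them were not identified. Scrublet, which looks for such doublets, called 3 cells in all, too few for the caller to be taken as working.

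Across the 8 samples, the relation of Ppy in insulin-led cells to the Ppy carried by the other cells of the sample depended on which cells were counted. Pearson's r was 0.178 (exact permutation p = 0.668) and Spearman's rho 0.0476 (exact permutation p = 0.935), and r was 0.442 without control replicates 1 and 3, which lay farthest from the median level outside insulin-led cells. It was 0.610 without control replicate 1 alone (exact permutation p = 0.149). For Ppy r rose to 0.753 without the cells of highest doublet score (exact permutation p = 0.0402) and to 0.770 with the leading hormone at least 3 times the next (exact permutation p = 0.0223). For Pyy r was 0.362 (exact permutation p = 0.384), rho 0.190 (exact permutation p = 0.665) and r without the same samples -0.377. Adjusted over the 2 genes the p of r was 0.668 for both and that of rho 0.935. With the share of thinned cells as the measure, chosen after seeing that single cells set the mean, r was 0.616 (exact permutation p = 0.105) for Ppy and 0.551 (exact permutation p = 0.173) for Pyy. These values pool the groups, which differ in the levels, and groups of 4 are too small for a correlation of their own. Within them r of the CPM had no common sign, at -0.478 in control and 0.354 in PPTx samples for Ppy and at 0.289 and -0.779 for Pyy.

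Between the groups, summed over all cells, Ppy and Pyy were higher on average after PPTx but did not pass the test. Ppy was at 23145, 58953, 19656 and 43319 CPM in control replicates 1 to 4 and at 70324, 72422, 60776 and 43920 CPM in PPTx replicates 1 to 4. Control replicate 2 lay within the PPTx range. The log2 difference was 0.72 (SE 0.27, adjusted p = 0.369, edgeR quasi-likelihood test). Pyy was at 3056, 15334, 6082 and 14520 CPM in control and 20550, 15549, 15525 and 15817 CPM in PPTx samples. These groups did not overlap, by a narrow margin, as was so for 5.11% of the genes tested, and with PPTx higher for 3.54%. Its log2 difference was 0.75 (SE 0.32, adjusted p = 0.451, edgeR). Of 6753 genes 32, or 0.474%, were called by edgeR, and 0.222% were called higher after PPTx. Summed markers of acinar cells, 7 of 8 with a UMI, were at 1.71 to 13.2 CPM in control and 9.55 to 127 CPM in PPTx samples, and their part in the differences was not tested. A sum over all cells does not tell more cells of a class from more RNA in each.

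The cells behind the sums differed in number. Ppy-led cells were 3.08%, 8.82%, 4.81% and 8.43% of control replicates 1 to 4, from 2, 9, 9 and 14 cells, and 14.4%, 15.3%, 15.6% and 12.0% of PPTx replicates 1 to 4, from 18, 45, 21 and 19 cells. All PPTx samples exceeded all control samples, by 8.03 percentage points on average (exact permutation test, p = 0.0286, the smallest p that 4 against 4 allow). The 4 classes were tested together, and the adjusted p was 0.0571. The 95% Clopper-Pearson intervals of single samples, which cover counting error only, were wide. They ran between 0.375% and 10.7% for control replicate 1, and between 9.89% and 22.8% for PPTx replicate 3. Gcg-led cells went the other way, with 9.23%, 11.8%, 28.3% and 16.3% of control and 3.20%, 3.06%, 5.93% and 1.27% of PPTx cells, and a mean difference of -13.04 points (p = 0.0286 by exact permutation, adjusted p = 0.0571). It was -9.06 to -15.4 points without single samples, and the exact permutation p rose to 0.0571 without any single PPTx sample. Insulin-led and Sst-led shares differed by 6.67 and -1.87 points (exact permutation test, adjusted p = 0.171 and 0.0762). For the Sst-led share the unadjusted exact permutation p was 0.0571. It ranged from 0.0286 to 0.0857 without single samples and from 0.0286 to 0.25 under the other alternatives. Of the cells not led by insulin, Ppy-led cells were 14.1% to 37.5% in control and 67.7% to 90.5% in PPTx samples, a measure added after seeing the data.

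**Figure D3:**
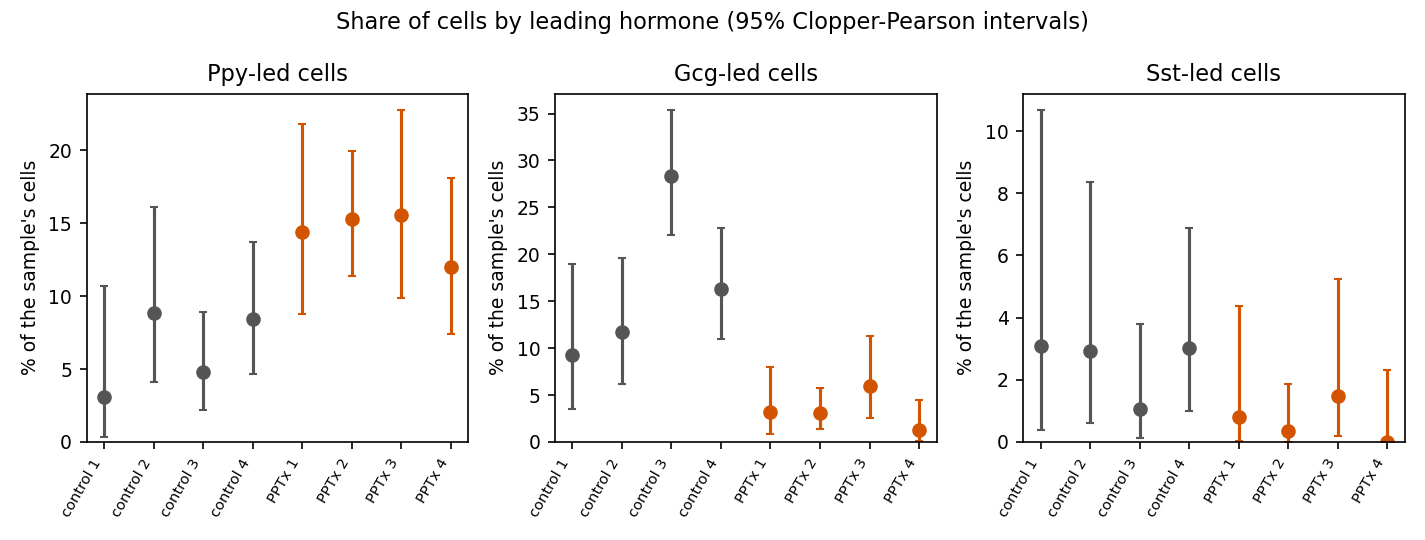
Share of the cells of each sample led by Ppy, Gcg or Sst, with 95% Clopper-Pearson intervals as bars, control in grey and PPTx in orange. The 4 PPTx samples lie between 12.0% and 15.6% for Ppy, above every control sample, and between 1.27% and 5.93% for Gcg, below every control sample.

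Within the Ppy-led cells no difference passed the test. Pyy was at 115903, 107411 and 136362 CPM in control replicates 2 to 4 and at 129208, 92572, 104702 and 133784 CPM in PPTx replicates 1 to 4, and the groups overlapped, where 6.24% of genes did not overlap and 3.26% did so with PPTx higher. The log2 difference was -0.10 (SE 0.25, adjusted p = 0.965, edgeR), without control replicate 1 for its 2 cells. In this fit 0 of 705 genes, or 0%, were called by edgeR and 0 by DESeq2, with 40 and 12 genes at an unadjusted p under 0.05. The log2 of Pyy per 100 Ppy UMIs differed by 0.46 over all 8 samples (exact permutation test, p = 0.6) and by -0.03 without control replicate 1 (exact permutation test, p = 0.886).

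In insulin-led cells both genes were detected more often after PPTx. After thinning to 2000 UMIs, a Ppy UMI was present in 34.5%, 26.9%, 13.01% and 33.3% of the cells of control replicates 1 to 4 and in 57.4%, 63.6%, 34.6% and 55.5% of PPTx replicates 1 to 4. The lowest PPTx sample lay just above the highest control sample. They had a UMI in 36 of 104 and 19 of 55 cells in a single random draw, and another draw could reverse their order. On average PPTx samples were 25.8 points higher (p = 0.0286 by exact permutation, adjusted p = 0.0286 over 2 genes). A Pyy UMI was present in 14.5%, 10.3%, 11.4% and 13.3% of control and 31.7%, 26.8%, 19.2% and 30.7% of PPTx cells, a difference of 14.7 points (exact permutation test, p = 0.0286, adjusted p = 0.0286). Both p rose to 0.0571 without any single control sample (exact permutation test). For Ppy the p was also 0.0571 without called doublets or without the highest doublet scores, and 0.0857 with all deposited cells (exact permutation test). Without thinning the differences were 33.3 and 23.8 points, at a median depth per cell of 7211 UMIs in the control group and 5656 UMIs after PPTx.

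The detection of Ppy and Pyy in these cells moved in the direction of the share of Ppy-led cells, which was higher in every PPTx sample than in the controls. Gcg was detected less in the PPTx group, a difference with no test here, and the share of Gcg-led cells was lower in every PPTx sample. A thinned Gcg UMI was present in 25.5%, 17.9%, 45.5% and 32.5% of the insulin-led cells of control replicates 1 to 4 and in 12.9%, 21.3%, 14.4% and 6.57% of those of PPTx replicates 1 to 4. Over the groups this was 32.7% of control and 15.1% of PPTx cells, with overlap through control replicate 2 and PPTx replicate 2. Sst did not follow the share of its class. A thinned Sst UMI was present in 11.2% of control and 15.8% of PPTx insulin-led cells, with overlapping samples, while the mean difference in the share of Sst-led cells was -1.87 points, from 12 control and 4 PPTx cells. The part of free RNA in the detection of Ppy and Pyy was not tested. In sums over insulin-led cells, Pyy rose after PPTx by a log2 difference of 1.58 (SE 0.33, adjusted p = 0.0348, edgeR), where 19 of 5929 genes, or 0.32%, were called, 0.186% as higher. Pyy was at 618, 485, 137 and 718 CPM in control and 840, 1543, 1306 and 2341 CPM in PPTx samples, with no overlap, as for 6.04% of genes, and 4.98% with PPTx higher. The call was lost with DESeq2 (adjusted p = 0.162), without called doublets and with the leading hormone at least 3 times the next (edgeR, adjusted p = 0.0526 and 0.116), and without control replicate 1 or 2 or PPTx replicate 1, 3 or 4 (edgeR, adjusted p = 0.0545 to 0.138). Ppy was at 4975, 570, 149 and 919 CPM in control and 2461, 5971, 2821 and 2944 CPM in PPTx samples, and the difference of 1.06 was not called (SE 0.53, adjusted p = 0.543, edgeR). The level of control replicate 1 came from its single high cell. Without that replicate the log2 difference was 2.57 (SE 0.38, adjusted p = 0.00937, edgeR). It was also called at 2.19 without the highest doublet scores, 1.81 with the leading hormone at least 3 times the next, 2.06 with a replicate block and 1.16 without the filter on low counts (edgeR, adjusted p = 0.00974, 0.032, 0.0243 and 2.63e-08). The fit without the filter kept all 8 samples and covered 14133 genes, and control replicate 1 still lay within the PPTx range. The small p of that fit thus does not stand for samples that lay further apart.

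**Figure D4:**
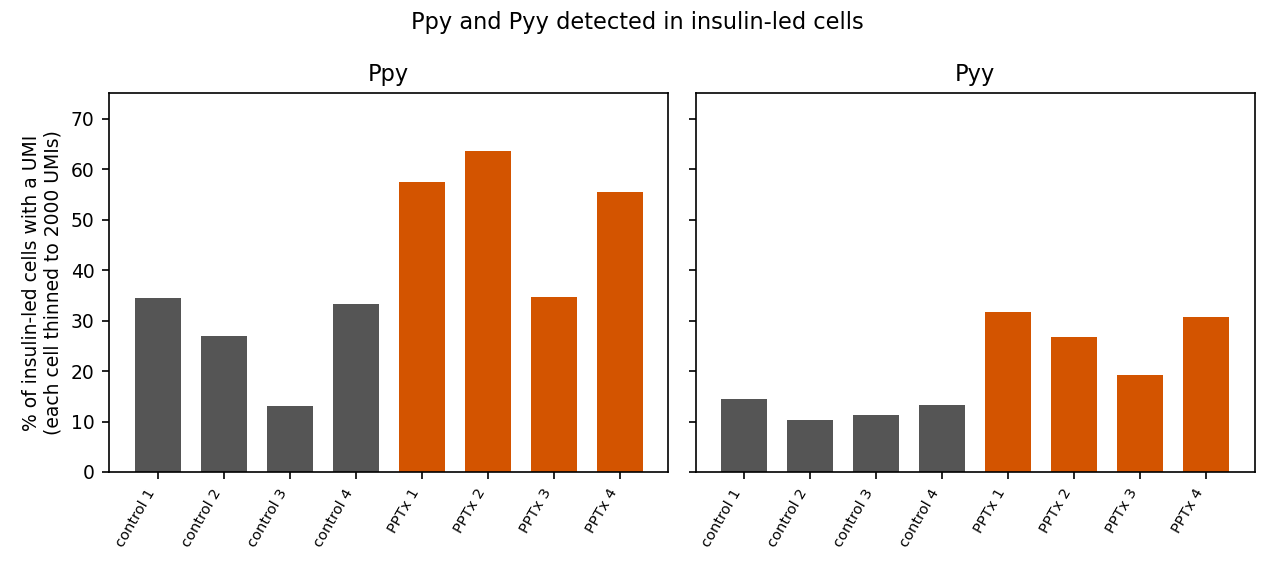
Percentage of insulin-led cells with at least 1 UMI of Ppy (left) or Pyy (right) after thinning each cell to 2000 UMIs; each bar is 1 sample, control in grey and PPTx in orange. For Pyy the PPTx samples reach 19.2% to 31.7% and the control samples 10.3% to 14.5%; for Ppy the lowest PPTx sample, at 34.6%, is next to control replicate 1 at 34.5%.

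In the Gcg-led cells, a comparison added after the data had been seen, both genes passed the test. The class bounds Ppy below Gcg in each cell and leaves Pyy free. Ppy was at 11752, 25813, 15615 and 15392 CPM in control replicates 1 to 4 and at 67509, 66170, 45806 and 77136 CPM in PPTx replicates 1 to 4. Pyy was at 11161, 21213, 11586 and 17277 CPM in control and at 66387, 29348, 70646 and 96338 CPM in PPTx samples. Neither gene overlapped between the groups, as was so for 5.86% of genes, and for 1.38% with PPTx higher. Both rose in PPTx samples, Ppy by a log2 difference of 1.95 (SE 0.25, adjusted p = 9.25e-08, edgeR) and Pyy by 2.14 (SE 0.27, adjusted p = 9.25e-08, edgeR). The fit covered 290 genes and called 3, or 1.03%, of which the third was Iapp, the amylin gene, with 81.9% of its UMIs in PPTx replicate 2 from 1 cell. It rests on 6, 12, 53 and 27 control and only 4, 9, 8 and 2 PPTx cells. With the samples of at least 5 such cells the differences were 1.73 and 1.71 (edgeR, adjusted p = 5.96e-05 and 6.85e-05), and without a filter on low counts neither was called (edgeR, adjusted p = 0.673).

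The median cell held Ppy at 0.0195%, 0.0791%, 0.0747% and 0.0809% of its UMIs in control samples and at 4.28%, 5.47%, 4.91% and 8.65% in PPTx samples. The PPTx medians of Ppy stand for cells that lay apart. In 2 of 4, 4 of 9, 1 of 8 and 1 of 2 cells of PPTx replicates 1 to 4 Ppy was at or below 0.400% of the UMIs, and no cell of replicates 1, 2 and 4 lay between that level and 5.47%. For Pyy the medians were 0.346%, 0.321%, 0.548% and 0.467% in control and 7.56%, 2.05%, 8.13% and 9.60% in PPTx samples. Pyy passed 1% of the UMIs in 31 of 98 control and 19 of 23 PPTx cells, and Ppy in 19 of 98 and 15 of 23. Per sample these shares were 41.0 points higher for Ppy and 54.5 points higher for Pyy after PPTx (exact permutation test, p = 0.0286 for each, adjusted p = 0.0286 over 2 genes). When Gcg had to be at least 3 times the next hormone, the difference for Ppy was 20.6 points (exact permutation test, p = 0.314), and that for Pyy was 55.5 points (exact permutation test, p = 0.0286). This limit acts on Ppy itself, since Ppy was the next hormone in 10 of the 11 cells it removed, so the values of the genes under it are not comparable.

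The Pyy differences of the classes were also set against each other. Relative to the Ppy-led cells of the same sample, Pyy in Gcg-led cells was 1.70 higher on the log2(CPM + 10) scale in PPTx than in control samples (exact permutation test, p = 0.0286, adjusted p = 0.0571 over 2 pairs). All 8 samples entered, without the limit of at least 5 cells of both classes. Control replicate 1 had 2 Ppy-led cells, and PPTx replicates 1 and 4 had 4 and 2 Gcg-led cells. The exact permutation p rose to 0.0571 without control replicate 3 or 4 or PPTx replicate 1, 3 or 4, at 1.501 to 1.72. Relative to insulin-led cells the difference was 0.30 (exact permutation test, adjusted p = 0.686). The 6 markers of insulin-led cells other than Ins1 and Ins2, Iapp among them, summed to 472 to 1444 CPM in control and 1418 to 9828 CPM in PPTx Gcg-led cells, and Mafa was at 0 there. The highest value rested on 1 cell with 943 insulin UMIs in PPTx replicate 2, without which it was 2366 CPM. Ins1 and Ins2 together were at 5968 to 13998 CPM in control and 2618 to 32074 CPM in PPTx Gcg-led cells, and PPTx replicate 2 fell to 16209 CPM without that cell. Their log2 differences were 1.02 and 1.09 (edgeR, adjusted p = 0.229 and 0.19). Without the same cell Ppy and Pyy of PPTx replicate 2 were at 68399 and 33122 CPM, above all control samples. The part of these markers in the result was not tested.

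**Figure D5:**
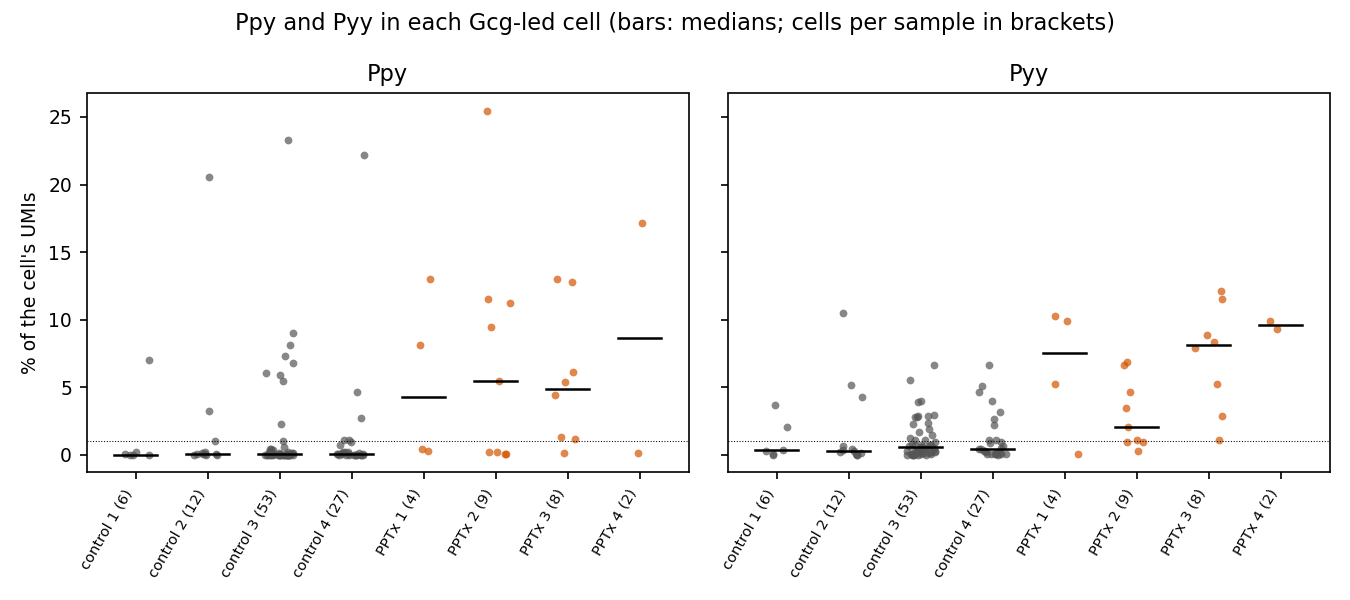
Ppy (left) and Pyy (right) as a percentage of the UMIs of each Gcg-led cell, by sample, with the number of cells in brackets, medians as lines and a dotted line at 1%. Control cells lie mostly near 0 with a few up to 23% of Ppy, whereas the PPTx medians lie between 4.28% and 8.65% for Ppy, with 8 of 23 cells at or below 0.400%, and between 2.05% and 9.60% for Pyy.

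Other genes of the pathway were counted from lists. Of the neuropeptide Y family and its receptors, Npy had 68 UMIs and Npy1r 5 in all cells, and Npy2r, Npy4r, Npy5r and Npy6r had none, and 0 of these 6 genes had enough counts for a test. Of 11 genes for processing and storing peptides all were tested over all cells and 0 were called by edgeR in either direction. Among all genes 32 of 6753, or 0.474%, were called, so a count of 0 says little about so short a list. The median log2 difference was -0.0137 in the list against -0.00359 over all genes. Pcsk1 and Pcsk2, the convertases that cut prohormones, were at 27.5 and 2826 CPM in Ppy-led cells and at 126 and 1682 CPM in insulin-led cells. Of 16 islet transcription factors 12 were tested, and 3 fell after PPTx. Among them Irx1 fell by 2.96 and Irx2 fell by 2.15 on the log2 scale (edgeR, adjusted p = 0.00141 and 0.00235). Of the 9 markers of Gcg-led cells 5 fell, the same 3 and Gcg and Ttr, where 0.252% of all genes were called lower. Within Gcg-led cells 0 of 6 tested markers of this list were called by edgeR, where 3 of 290 genes, or 1.03%, were. The share of Gcg-led cells was lower in every PPTx sample. Of the 9 markers of Ppy-led cells 6 were tested over all cells and 0 were called, where 0.474% of all genes were. Within Ppy-led cells 0 of the 8 tested processing genes and 0 of 7 tested transcription factors were called. Since 0 of all 705 genes tested there were called, these counts do not set the lists apart.

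Genes with the pattern most like that of each hormone were found by Spearman's rho across cells within each sample, averaged over the 8 samples, among 7099 genes with a UMI in at least 5% of cells. The cells of a sample share a library, and the values are descriptions. Pyy came first for Ppy, with a mean rho of 0.589 and a range of 0.219 to 0.723. Among the 10 highest were also Gpx3 (0.529), a secreted glutathione peroxidase, Cst3 (0.473), Resp18 (0.473), Tspan8 (0.467), Gnas (0.450), Tmem27 (0.440), Dbpht2 (0.427) and Cd81 (0.425). For Pyy, Gpx3 came first at 0.679 and Ppy second at 0.587, and the 10 highest also held Cst3 (0.560), Dbpht2 (0.553), Resp18 (0.550), Tmem27 (0.545), Cd81 (0.513), Gnas (0.513) and 1700086L19Rik (0.510). Gcg ranked 28th for Pyy and 63rd for Ppy, and Ins2 had the lowest rank of the genes with a value for both, with a mean rho of -0.615 for Pyy and -0.493 for Ppy. Within the 275 cells not led by insulin, Tspan8 came first for Ppy (0.669) and Pyy second (0.667), followed by Scg2 (0.491), a granin of secretory granules. In these cells Gcg was at -0.559 with Ppy and -0.353 with Pyy.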

How the data were processed

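Male C57BL/6J mouse islet cells were profiled in droplets. The authors aligned reads to mm10, counted UMIs with Cell Ranger and deposited whole-number counts per gene and cell, without normalization, in 1 table per sample. The labels name the ddSEQ isolator with a Chromium kit and the methods a ddSEQ kit. The selection of barcodes as cells is not given in the sources used here.

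The filter passed cells of 100 to 3000 detected genes with a total of 100 to 20000 UMIs. Each was classed by its highest hormone, and 3 doublets called by Scrublet stayed in. CPM was computed from sums per sample and class. The quasi-likelihood test of edgeR 4.0.16 in R 4.3.3, after filterByExpr and TMM scaling, was run on the sums, at a Benjamini-Hochberg adjusted p of 0.05 over all genes, with DESeq2 1.42.0 as an alternative. Ppy-led sums used samples with at least 5 such cells. Shares and ratios were tested by two-sided exact permutation, or exact sign flips within samples, with scipy 1.17.1 in Python 3.11.15. To compare detection, cells were thinned to 2000 UMIs in a single random draw, which left out none. On simulated counts changed by a log2 of 1.5, the fits recovered 117 of 200 changed genes over all cells, 120 of 200 in insulin-led, 79 of 141 in Ppy-led and 38 of 58 in Gcg-led cells, or 71.8%, 72.3%, 68.1% and 84.4% of those that passed the filter on simulated counts.

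Alternatives left out each sample, the filter, called doublets or mixed cells. Named genes were both members, the other hormones, 3 lists and the 10 genes with the highest mean rho, except some that are not reported here. Members and lists were chosen with earlier results of these data known.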

Additional observations from a re-analysis of the deposited data

Results flagged for a closer look

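Of 38 groups of 4 samples examined, 7 held a sample far from the other 3, where chance gives about 1 in 20 groups. Ppy in insulin-led cells was at 4975 CPM in control replicate 1, from 1 cell, and at 5971 CPM in PPTx replicate 2. Pyy over all cells was at 20550 CPM in PPTx replicate 1, above the other PPTx samples. The share of Sst-led cells was 1.07% in control replicate 3, below the other controls. Among Gcg-led cells, 87.5% held Ppy above 1% of their UMIs in PPTx replicate 3, of 8 cells. Pyy passed that level in 25% of those of control replicate 2, of 12 cells, against 32.1% to 33.3% in the other controls. The log2 of Pyy per 100 Ppy UMIs in Ppy-led cells was 2.67 in control replicate 1, which had 2 such cells.

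The Pyy difference between PPTx and control was larger in Gcg-led than in Ppy-led cells, by 1.70 on the log2(CPM + 10) scale (exact permutation test, p = 0.0286, adjusted p = 0.0571). It included control replicate 1 with 2 Ppy-led cells, and PPTx replicates 1 and 4 with 4 and 2 Gcg-led cells.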

How the results depend on the processing

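The p-values here are unadjusted for exact tests and adjusted over genes for edgeR and DESeq2. Whether replicate numbers pair the samples could not be settled. Over all cells, same-numbered deviations correlated weakly, at 0.0383, 0.0223, 0.103 and 0.155 for replicates 1 to 4. The highest values with any other number were 0.0263, 0.0570, -0.00306 and -0.00302, so only replicate 2 correlated better with another number. With the replicate number as a block, exact sign flips cannot fall below p = 0.125. At that p the differences stayed at 8.03 points for the Ppy-led share, 25.8 and 14.7 points for Ppy and Pyy detected in insulin-led cells, 41.0 and 54.5 points for Gcg-led cells above 1%, and 1.70 for Pyy in Gcg-led minus Ppy-led cells. The block raised the genes called over all cells from 32 to 58, and Ppy in insulin-led cells was then called, at 2.06 (edgeR, adjusted p = 0.0243).

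Ppy detection in insulin-led cells was 25.7 points with all deposited cells (exact p = 0.0857), 25.5 without called doublets and 25.1 without the cells of highest doublet score (exact p = 0.0571 for both). Leaving out single samples gave 21.2 to 31.9 points for Ppy and 13.2 to 17.3 for Pyy (exact p up to 0.0571), 4.83 to 5.26 for the Pyy level in Gcg-led minus insulin-led cells (exact p = 0.0625), and 1.501 to 1.97 for the Pyy group difference in Gcg-led minus Ppy-led cells (exact p up to 0.0571). The last was 1.88 with the leading hormone at least 3 times the next (exact p = 0.0571), where the Gcg-led share above 1% was 20.6 points for Ppy.

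Ppy in insulin-led cells ranged from 0.68 to 2.57 without single samples and was called at 1.16 without the filter on low counts, 2.19 without the highest doublet scores and 1.81 with clear leaders (edgeR, adjusted p = 2.63e-08, 0.00974 and 0.032). In the fit without the filter the groups overlapped as before. Without the highest doublet scores and with clear leaders, the correlation of Ppy in insulin-led cells with Ppy outside was 0.753 and 0.770 (exact permutation p = 0.0402 and 0.0223). Pyy in insulin-led cells ranged from 1.21 to 1.87 without single samples and lost its call at 1.56 with DESeq2, 1.47 without doublets and 1.57 with clear leaders (adjusted p = 0.162, 0.0526 and 0.116). Without the filter Pyy over all cells was called at 0.78 (edgeR, adjusted p = 0.0195), Ppy and Pyy in Gcg-led cells were not called at 1.39 and 1.53, and 118 genes were called. Single samples left out gave 10 to 33 called genes. The causes were not tested. Direction held under every alternative for 21 of 25 results. The exceptions, none past its threshold as reported, were Pyy per 100 Ppy UMIs and Pyy itself in Ppy-led cells between the groups, the Pyy group difference in Gcg-led minus insulin-led cells, and the Ppy correlation across samples. The 21 include the number of called genes, which cannot change sign. They also include the ratio of the pair in insulin-led against Ppy-led cells, which was given above with no test.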
